A study of Rattus norvegicus with 6 samples.

Results

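The nuclear-encoded genes of oxidative phosphorylation were examined in rat PC12 cells that overexpressed PCBP-1. The genes were chosen by symbol and not by any measured value. A gene was included if it was protein-coding, not on the mitochondrial chromosome, and had a symbol that starts with Nduf (complex I), Uqcr (complex III), Cox4 to Cox8 (complex IV) or Atp5 (complex V), or was Sdha, Sdhb, Sdhc or Sdhd (complex II). This gave 88 of the 20609 genes in the count table, with 41 in complex I, 4 in complex II, 7 in complex III, 18 in complex IV and 18 in complex V. Of the 88, 81 had enough counts to be tested among 12624 genes, and the other 7 had at most 11 counts in any library.

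PC12 is a line derived from a pheochromocytoma of the rat adrenal medulla, and PCBP-1 is a protein that binds RNA and acts on transcription, splicing and mRNA stability. Poly-A RNA was measured by RNA-seq in 3 libraries of cells given a control plasmid and 3 of cells given a PCBP-1 plasmid (PCBP1-OE), introduced with Lipofectamine. The time of harvest for RNA-seq is not given in the sources used here, and the study speaks of stable overexpression while its methods describe a transfection. The labels name the libraries as separate samples of a group but do not say that they came from separate cultures, so that the p-values measure the spread between these libraries, which may be technical.

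Libraries held 19730209 to 22315623 counts on genes, and no row was matched to the PCBP-1 gene, whose overexpression was not checked here. Most, but not all, markers of the chromaffin cell were near absent. Enough counts for a test were present in 5 of 16 chromaffin markers, Chga had at most 3 counts and Dbh at most 5 in any library, and Th, the rate-limiting enzyme of catecholamine synthesis, had 141 to 185 counts. Scg2, a protein of chromaffin granules, was an exception with 2607 to 3553 counts (129 to 170.2 CPM) and made up most of the summed level of its list. Sox10 and S100b, which mark glial and Schwann cells, had 7160 to 9007 and 4143 to 5339 counts. The name PC12 is used here as the labels give it, and these markers are mixed on it. The summed level of 9 Schwann and glial markers was 894 to 950 CPM (counts scaled to a library size, by the TMM method) in controls and 831 to 859 CPM in PCBP1-OE, so the groups did not overlap, and 1 of 7 tested, Pmp22, was lower. The sums of the other marker lists were 155 to 184 CPM against 144 to 158 CPM for chromaffin cells, 256 to 259 against 233 to 242 CPM for fibroblasts, 44.9 to 51.9 against 39.5 to 44.7 CPM for leukocytes and 11.7 to 14.6 against 9.22 to 11.0 CPM for muscle and heart, in controls and PCBP1-OE in that order. Among these other sums only that of the chromaffin list overlapped between groups, and the rest were lower in PCBP1-OE without overlap. Single genes weighed heavily in them. Pdgfra, at 195 to 226 CPM, made up most of the fibroblast sum, and Cd14, at 31.9 to 42.5 CPM, most of the leukocyte sum. Of the 5 fibroblast markers tested 3 had fitted values above 0, as did 1 of the 4 leukocyte markers tested. Of the 4 muscle and heart markers tested, 2 were lower at an edgeR FDR of 0.05, against 5.0% of all tested genes. The median log2 fold change was -0.52. With limma-voom 0 of 4 were called, and with DESeq2 1 of the 2 that had an adjusted p. Ckm, the muscle creatine kinase, had 23 to 51 counts per library and a fitted log2 change of -0.77 (standard error 0.22, edgeR FDR 0.0477). Tnnt2, cardiac troponin T, had 58 to 109 counts and -0.61 (standard error 0.18, edgeR FDR 0.0460). Des, of the same list, went the other way, with 20 to 43 counts and 0.40 (standard error 0.30, edgeR FDR 0.404). The part of these markers in the results below was not tested.

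Oxidative phosphorylation takes place in the inner mitochondrial membrane. Complexes I and II pass electrons from NADH and succinate to ubiquinone, complex III passes them on to cytochrome c, and complex IV passes them to oxygen, while complexes I, III and IV pump protons that complex V, the ATP synthase, uses to make ATP. Most subunits are encoded in the nucleus and are imported, and a small set of core subunits is encoded in mitochondrial DNA. In bulk RNA, fewer cells of a kind and less RNA per cell cannot be told apart.

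Several promoters of these genes carry short sequences that are known to bind factors of respiratory gene transcription, and the sequences are shown here because several of the genes called below carry them. RefSeq promoters of the assembly GRCr8, from 250 bases before to 50 after the annotated start, were matched to 72 of the 88 genes, 58 by symbol and 14 by synonym. The unmatched members included Ndufa8, Ndufb9, Ndufaf6, a copy of Ndufa13, Ndufv3-ps1, Uqcrb, a copy of Cox6b1, Cox6c1, Cox4i2, Cox6a1, Cox6c, Atp5sl, Atp5h and both rows of Atp5f1. Both strands were searched for the NRF1 letters (GCGCA and GCGC with any 1 base between them), the YY1 letters AAGATGGC, the ETS letters CCGGAAG, which GABPA binds, and the SP1 letters GGGCGG. The capitals below mark the match, read 5′ to 3′ on the strand of the gene, and a match in the other orientation appears as the reverse complement.
Ndufa11, NRF1, chr9:1637509-1637534, plus strand: tgcgctgtGCGCATGCGCatgcgcac
Ndufaf4, NRF1, chr5:43401629-43401654, plus strand: agtagtccGCGCATGCGCccctgtgg
Atp5g2, NRF1, chr7:135678257-135678282, minus strand: ctctagtcGCGCATGCGCagagcctt
Atp5o, NRF1, chr11:44657525-44657550, minus strand: gccgacgcGCGCATGCGCtctggcat
Ndufa2, YY1, chr18:28631842-28631867, minus strand: ttgctagcaAAGATGGCggccgcaag
Ndufb8, YY1, chr1:253362899-253362924, minus strand: gagaaggtgAAGATGGCggcgtcccg
Ndufs7, YY1, chr7:10110478-10110503, minus strand: gccgaggccAAGATGGCggcgctggc
Atp5j2, YY1, chr12:14535459-14535484, plus strand: caacaggacttcAAGATGGCgtctat
Cox8a, YY1, chr1:213833611-213833636, minus strand: gctattgcgGCCATCTTgacttcctg
Ndufa13, ETS, chr16:19560508-19560533, plus strand: cgctggccaCCGGAAGtcgcggatcc
Cox4i1, ETS, chr19:65630377-65630402, plus strand: cgtcttgctCTTCCGGtgcgggaccc
Uqcrq, ETS, chr10:38089984-38090009, minus strand: ccgctcctcCCGGAAGtgacgtgcaa

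The Ndufa11 promoter held a second NRF1 match that overlaps the one shown. The NRF1 letters were found in 13 of the 72 promoters (18.1%), against 5.67% of 21851 RefSeq promoters of protein-coding genes. For YY1 the number was 14 (19.4%, against 3.67%), for ETS 20 (27.8%, against 10.7%) and for SP1 29 (40.3%, against 41.8%). A match is a description of the letters and not of a bound site. The median log2 fold change was -0.13 with an NRF1 match and -0.15 without, -0.18 and -0.14 for ETS, -0.19 and -0.13 for YY1, and -0.097 and -0.16 for SP1. Genes called lower were 3 of 13 tested with an NRF1 match and 17 of 55 without. The counts were 6 of 20 and 14 of 48 for ETS, 6 of 13 and 14 of 55 for YY1, and 2 of 26 and 18 of 42 for SP1. These differences were not tested. Ndufa11, which was lower in PCBP1-OE, and Ndufaf4, which was higher, carry the same 10 letters.

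Many subunit genes were lower in PCBP1-OE, each by a small amount. An FDR of 0.05 (edgeR's quasi-likelihood test, adjusted over all genes by the Benjamini-Hochberg method) was passed by 25 of the 81 tested genes, where 9.45% of all tested genes were called in either direction. Of these 25 genes, 24 were lower in PCBP1-OE (29.6% of the 81), against 5.0% of all tested genes, and 1 gene, Ndufaf4, was higher, against 4.45% of all tested genes. The smallest of the called decreases fell by 10.4% and the largest fell by 19.8%. Of the 25 genes 0 also changed by at least 2-fold, which 0.190% of all tested genes did. The median log2 fold change over the 81 genes was -0.15, against 0.0029 over all tested genes, with 72 values below 0 and 9 above.

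Most of these genes have many counts, so they were also set beside genes with a mean of at least 1000 counts. Of 68 members at that level 24 were called lower (35.3%) and their median was -0.16, while 11.4% of all 4370 genes at that level were called lower and their median was -0.035. Of those 4370 genes 5.22% were called higher, and of the 68 members 1 was. Of the 13 tested members with fewer counts, 0 were called lower by edgeR's quasi-likelihood test and 2 had an unadjusted p of 0.05 or less in that direction. In 32 of the 81 tested genes (39.5%) all 3 PCBP1-OE libraries lay below all 3 controls, against 16.5% of all tested genes. At a mean of at least 1000 counts this held for 31 of the 68 members and for 1202 of all 4370 genes. Of the 24 called genes 22 had groups that did not overlap, and the other 2 were Ndufb5 and Atp5h. The call itself favours groups that lie apart, so this count adds no support to it. The share among all called genes is not given here. The called genes, including Ndufaf4, lie on 12 chromosomes of the table.

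**Figure D1:**
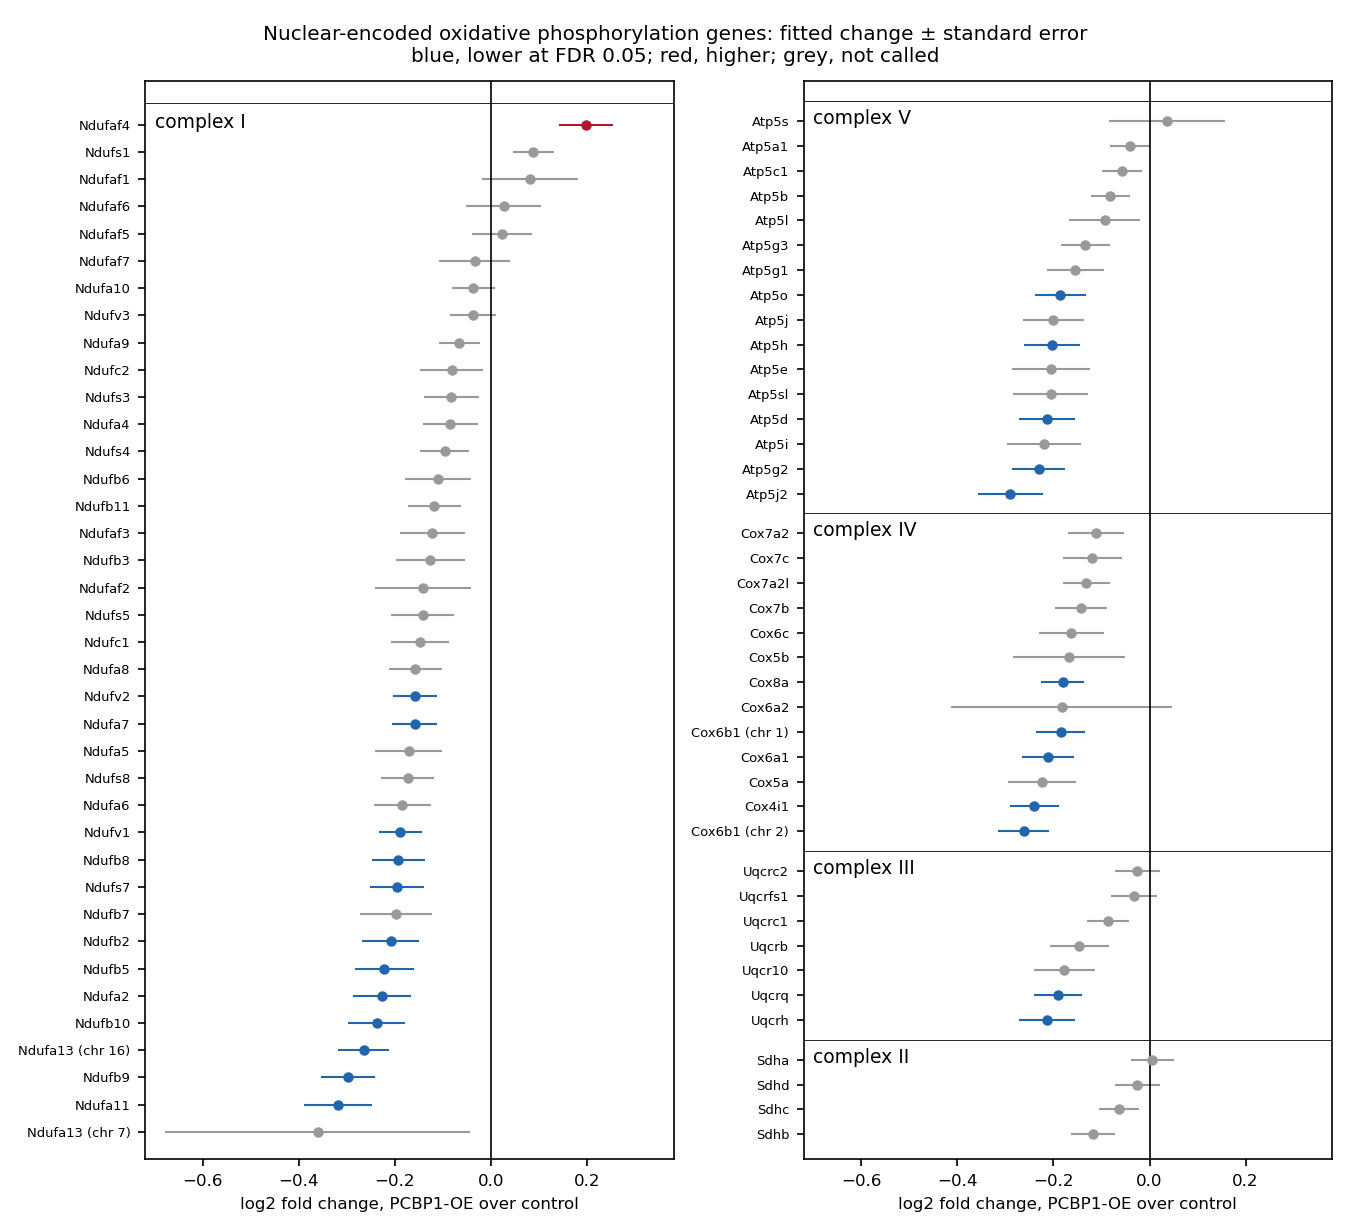
Fitted log2 fold change (x axis, PCBP1-OE over control, 3 libraries each) with its standard error for the tested genes, grouped by complex, with both rows of Atp5f1 left out because of their wide errors and 1 gene of complex I not shown. The 24 genes in blue were lower at an FDR of 0.05 and Ndufaf4 in red was higher. The other points are grey, and most of them also lie below 0.

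The number of genes called rested on single libraries. Omission of replicate 1 or 2 of the controls, or of replicate 1 or 2 of PCBP1-OE, left 0 genes called lower by edgeR's quasi-likelihood test. Omission of PCBP1-OE replicate 3 left 12, and omission of control replicate 3 raised the number to 50. The share of all tested genes called lower moved with them, at 0.0936% to 0.615% in the 4 fits with 0 genes, 2.79% without PCBP1-OE replicate 3 and 11.4% without control replicate 3. Of the 25 genes called with all libraries, 11 were also called without PCBP1-OE replicate 3 and 25 without control replicate 3. At an unadjusted p of 0.05 or less the 4 omissions with 0 genes left 26, 27, 31 and 31 genes lower, against 44 with all libraries. With all libraries 14.8% of all tested genes were lower at that threshold. That share was not computed for the fits with a library left out, so these counts cannot be set beside all genes. The direction was steadier, with 70 to 74 of the tested genes below 0 and a median log2 fold change of -0.20 to -0.12 in the 6 fits. Other tools with all 6 libraries called 22 to 28 genes lower.

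**Figure D2:**
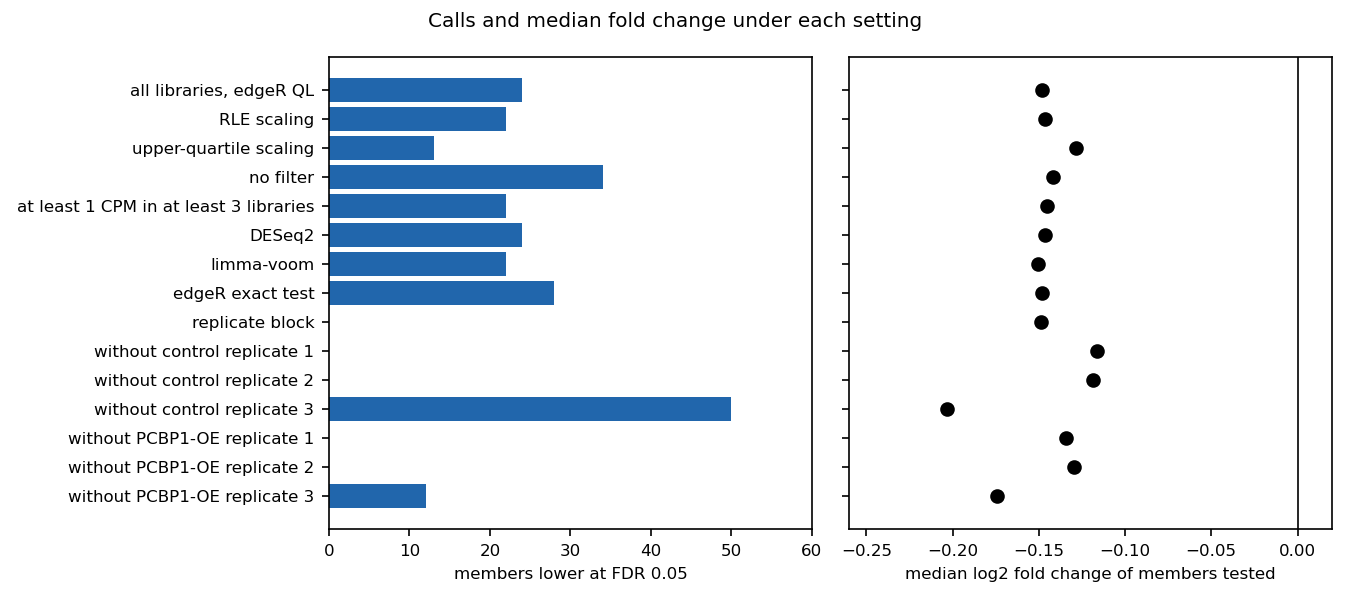
Number of tested genes called lower at an FDR of 0.05 (left) and median log2 fold change of the tested genes (right) with all libraries and under each of 14 other settings. The number ranges from 0 to 50, and the median stays below 0 in each setting.

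The libraries of a group were not alike. The median of the 81 genes, as log2 of the level over the mean of each gene, was 0.12, 0.13 and -0.015 in control replicates 1, 2 and 3, and PCBP1-OE replicates 1, 2 and 3 had -0.11, -0.096 and -0.0097. Both replicates numbered 3 thus lay between the others. Control replicate 3 was the lowest control in 63 of the 81 genes, PCBP1-OE replicate 3 was the highest PCBP1-OE library in 64, and control replicate 3 was below PCBP1-OE replicate 3 in 37. PCBP1-OE replicates 1 and 2 were both below control replicates 1 and 2 in 67 genes. For comparison, the median over all genes with a mean of at least 1000 counts was 0.017, 0.025 and 0.0089 in the controls, against -0.023, -0.024 and -0.0049 in PCBP1-OE.

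**Figure D3:**
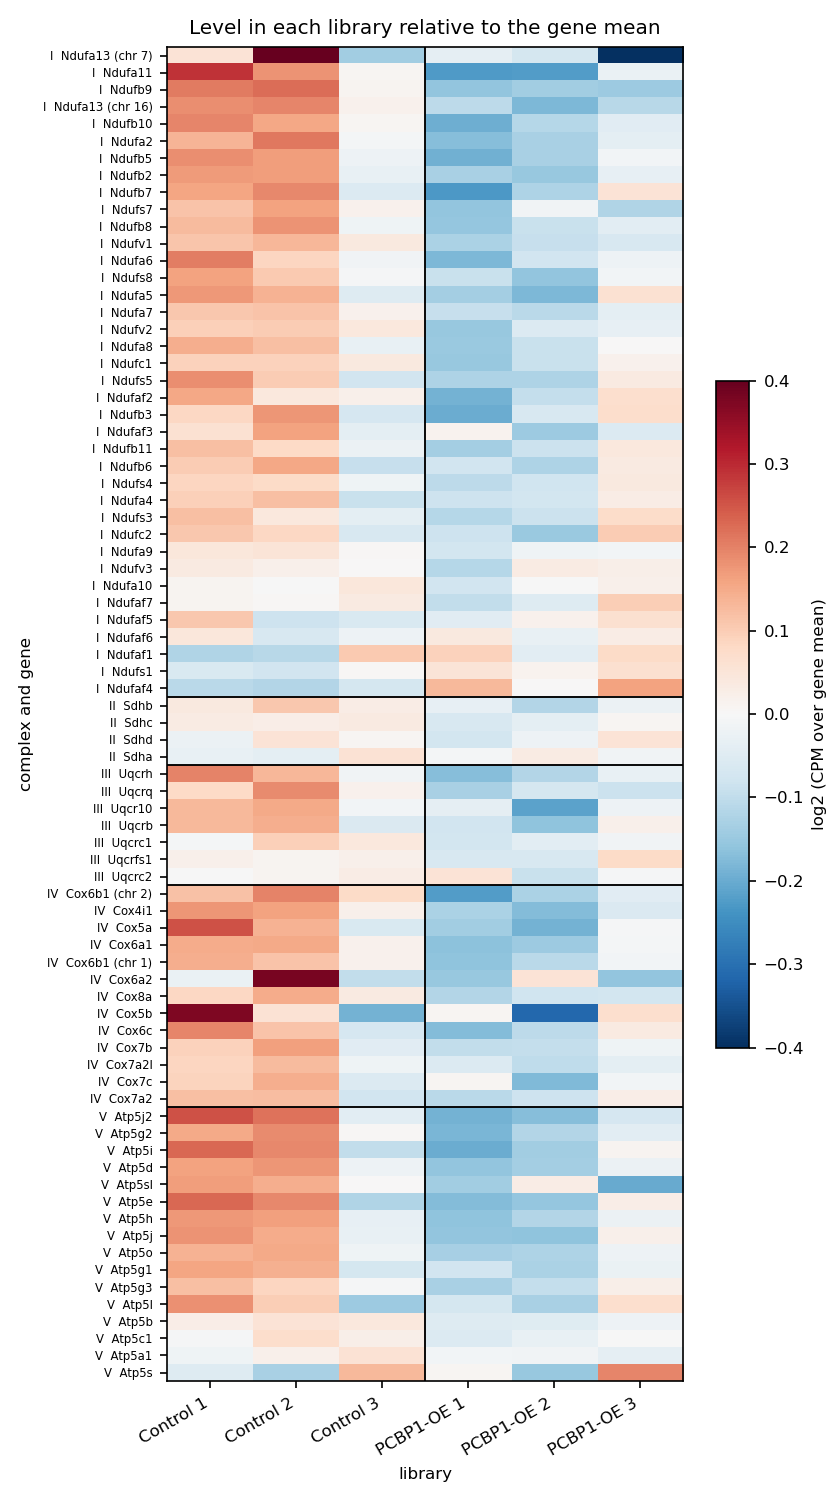
Level of the tested genes in each library as log2 of its CPM over the mean of the gene (colour, limited to 0.4 on either side of 0), with genes in rows by complex and libraries in columns, without the rows of Atp5f1 and 1 gene of complex I. Most rows are red in control replicates 1 and 2, blue in PCBP1-OE replicates 1 and 2, and pale in both replicates numbered 3.

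A similar pattern was present in genes of the cytosolic ribosome, a set looked at after the values of these libraries were seen. Of its 81 tested genes 24 were lower and 0 higher by edgeR's quasi-likelihood test (62 and 0 at an unadjusted p of 0.05 or less), with a median log2 fold change of -0.19. Its library medians were 0.17, 0.13 and -0.022 in the controls and in PCBP1-OE -0.14, -0.12 and -0.0064, an order close to that of the respiratory genes. Of 72 tested genes of the mitochondrial ribosome 5 were lower, with a median of -0.080. Whether these groups of genes move for a shared reason was not tested.

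Summed over all genes of a complex, complex IV was the most reduced and complex II the least. The sum for complex I was 4636, 4618 and 4268 CPM in controls and 3990, 4044 and 4312 CPM in PCBP1-OE, where PCBP1-OE replicate 3 was above control replicate 3. For complex IV it was 3831, 3722 and 3323 CPM in controls and 3129, 3046 and 3370 CPM in PCBP1-OE, with the same overlap. The groups did not overlap in the other complexes. Complex II had 734, 749 and 748 CPM in controls and 709, 713 and 733 CPM in PCBP1-OE, and complex III had 1342, 1378 and 1301 CPM against 1232, 1213 and 1285 CPM. Complex V had 6444, 6480 and 6053 CPM in controls and 5729, 5765 and 5959 CPM in PCBP1-OE. The mean sums changed by -8.70% in complex I, -3.43% in complex II, -7.26% in complex III, -12.2% in complex IV and -8.03% in complex V. No test was made of the sums or of differences between complexes. Together the genes held 1.58% to 1.66% of all control counts and 1.50% to 1.55% in PCBP1-OE.

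**Figure D4:**
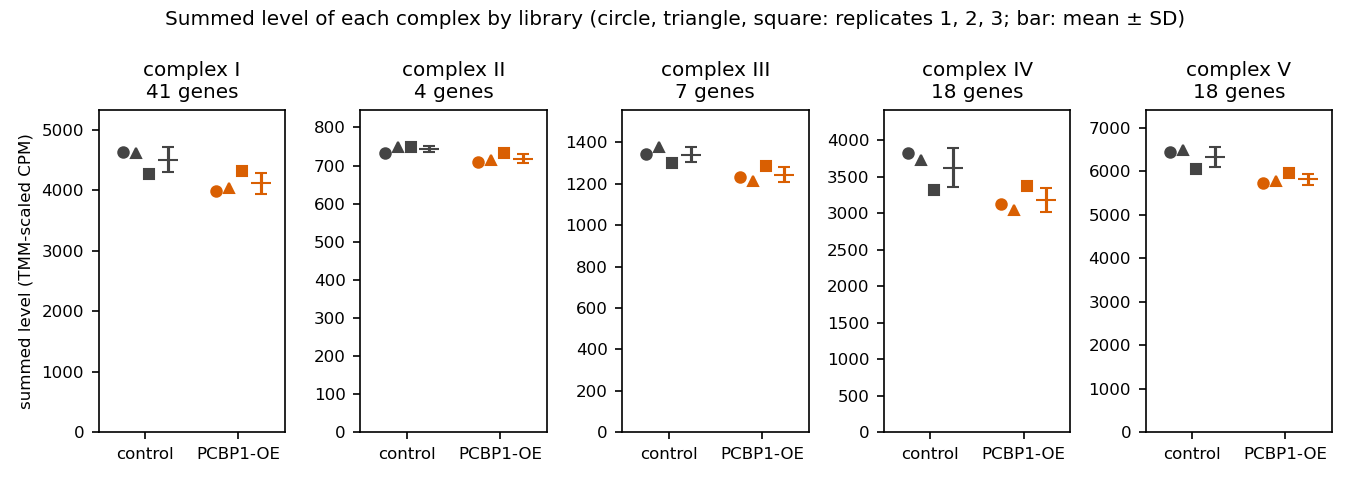
Summed level of each complex (y axis, TMM-scaled CPM, from 0) in the 3 control and 3 PCBP1-OE libraries, with the mean and SD of each group beside the points. The replicates numbered 3, drawn as squares, overlap between groups in complexes I and IV and not in complexes II, III and V.

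Complex I, the NADH dehydrogenase, had 12 genes called lower and 1 called higher of 39 tested, with a median log2 fold change of -0.14. Its 7 core subunits include the redox centres. Ndufv1 (ENSRNOG00000018117, chromosome 1), which binds FMN and takes electrons from NADH, was at 148, 151 and 141 CPM in controls and 126, 129 and 132 CPM in PCBP1-OE. Its groups did not overlap, with a fitted log2 change of -0.19 (standard error 0.044, edgeR FDR 0.0239). Ndufv2, its iron-sulfur partner, had a fitted log2 change of -0.16 (standard error 0.047, edgeR FDR 0.0498), and Ndufs7, which carries the iron-sulfur cluster that reduces ubiquinone, had -0.20 (standard error 0.057, edgeR FDR 0.0475). Ndufs1, an iron-sulfur subunit of the same arm as Ndufv1, went the other way. It was at 160, 159 and 168 CPM in controls and 173, 169 and 175 CPM in PCBP1-OE, higher in each PCBP1-OE library than in any control, but did not pass the test (log2 fold change 0.088, standard error 0.044, edgeR FDR 0.203). The 7 core subunits ranged from -0.20 to 0.088.

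All 24 accessory subunits of complex I, which surround the core and stabilise it, had fitted values below 0, and 9 of them were called. Ndufa11 (ENSRNOG00000048320, chromosome 9), a subunit of the membrane arm, was at 113, 105 and 93.1 CPM in controls and 79.0, 79.2 and 90.9 CPM in PCBP1-OE. Its replicates numbered 3 were close to each other and the groups did not overlap, with a fitted log2 change of -0.32 (standard error 0.071, edgeR FDR 0.0201). Ndufb9 (ENSRNOG00000009364, chromosome 7), also of the membrane arm, was at 189, 191 and 165 CPM in controls and 147, 148 and 148 CPM in PCBP1-OE. The PCBP1-OE libraries were nearly equal and all below the controls, and its log2 fold change was -0.30 (standard error 0.056, edgeR FDR 0.0110). Ndufa13, known also as a cell death regulator, had -0.26 (standard error 0.053, edgeR FDR 0.0138) from the row on chromosome 16. A second row of that symbol, on chromosome 7, had 13 to 28 counts per library, and reads may be shared between such copies. Its log2 fold change was -0.36 (standard error 0.32, edgeR FDR 0.492), the lowest fitted value of complex I and the one with the widest error in it.

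The other called accessory subunits changed less. Ndufb10, Ndufb5, Ndufb2 and Ndufb8 belong to the membrane arm. They had log2 fold changes of -0.24, -0.22, -0.21 and -0.19 (standard errors 0.059, 0.062, 0.059 and 0.055, edgeR FDR 0.0295, 0.0410, 0.0431 and 0.0439). Ndufa2 and Ndufa7, of the matrix arm, had -0.23 and -0.16 (standard errors 0.060 and 0.047, edgeR FDR 0.0362 and 0.0499). Ndufb5 overlapped between groups, at 128 CPM in control replicate 3 and 129 CPM in PCBP1-OE replicate 3. The accessory subunit nearest to 0 was Ndufa10, at -0.037.

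The 7 assembly factors named Ndufaf, which help to build complex I and are not part of it, were spread around 0, with a median of 0.023, 3 values below 0 and 4 above. Ndufaf4 (ENSRNOG00000007506, chromosome 5) was at 49.0, 48.7 and 50.3 CPM in controls and 57.8, 52.9 and 59.1 CPM in PCBP1-OE. Each PCBP1-OE library was above each control, with a fitted log2 change of 0.20 (standard error 0.056, edgeR FDR 0.0444), and it is the 1 gene of the 81 that was called higher. It passed in 7 of the 14 other settings, and those where it did not include limma-voom and the replicate block. The number of assembly factors called lower was 0 by edgeR's quasi-likelihood test, also at an unadjusted p of 0.05 or less, and 0 by DESeq2, limma-voom and edgeR's exact test. Of all tested genes 5.0% were called lower by edgeR's quasi-likelihood test, and 14.8% were lower at the unadjusted threshold. Apart from Ndufaf4 these factors had 267 to 1030 counts per library. Among all 13 tested members with a mean below 1000 counts, 0 were called lower. The difference between assembly factors and subunits was not tested.

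**Figure D5:**
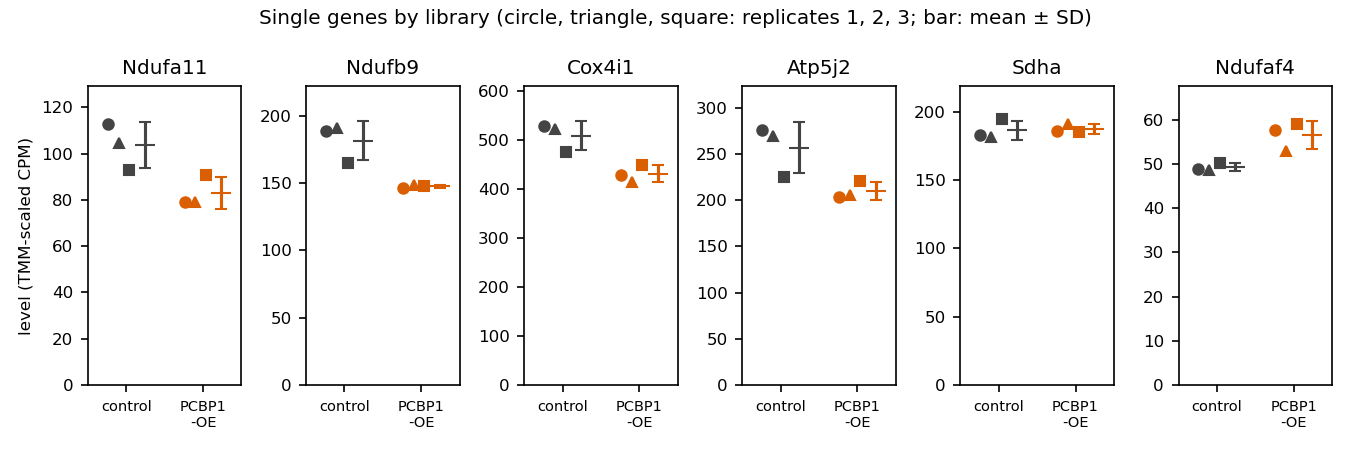
Level of 6 genes (y axis, TMM-scaled CPM, from 0) in the 3 control and 3 PCBP1-OE libraries, with the mean and SD of each group. Ndufa11, Ndufb9, Cox4i1 and Atp5j2 are lower in all PCBP1-OE libraries, Sdha overlaps between groups, and Ndufaf4 is higher in all PCBP1-OE libraries.

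Complex II, the succinate dehydrogenase, which is also an enzyme of the tricarboxylic acid cycle and has no mitochondrially encoded subunit, had no gene called. The count was 0 of 4 by edgeR's quasi-likelihood test, DESeq2, limma-voom and edgeR's exact test, and 1 gene had an unadjusted p of 0.05 or less. Sdha (ENSRNOG00000013331, chromosome 1), the flavoprotein, was at 183, 182 and 195 CPM in controls and 186, 191 and 185 CPM in PCBP1-OE. The groups overlapped, and the log2 fold change of 0.0060 (standard error 0.045, edgeR FDR 0.945) changed sign when control replicate 1 or 2 or PCBP1-OE replicate 2 was left out. Sdhb, the iron-sulfur subunit, was at 175, 183 and 174 CPM in controls and 166, 157 and 167 CPM in PCBP1-OE, without overlap (log2 fold change -0.12, standard error 0.046, edgeR FDR 0.114). The membrane anchors Sdhc and Sdhd had -0.063 and -0.025 (edgeR FDR 0.343 and 0.768).

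Complex III, the cytochrome bc1 complex, had 7 genes tested, all with fitted values below 0, and 2 called. Both are small accessory subunits. Uqcrh (ENSRNOG00000012550, chromosome 5), the hinge protein near cytochrome c1, was at 200.0, 191 and 172 CPM in controls and 155, 161 and 171 CPM in PCBP1-OE. The groups were apart by a small margin between the replicates numbered 3, with a fitted log2 change of -0.21 (standard error 0.058, edgeR FDR 0.0397). Uqcrq had -0.19 (standard error 0.050, edgeR FDR 0.0361). The other accessory subunits, Uqcr10 and Uqcrb, had -0.18 and -0.15 and did not pass (edgeR FDR 0.0866 and 0.138). The core proteins Uqcrc1 and Uqcrc2 had -0.087 and -0.025 (edgeR FDR 0.212 and 0.764), and the Rieske iron-sulfur protein Uqcrfs1 had -0.032 (edgeR FDR 0.706).

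Complex IV, cytochrome c oxidase, had 5 genes called of 13 tested, all 13 with fitted values below 0 and a median of -0.18. Cox4i1 (ENSRNOG00000017817, chromosome 19), the large nuclear-encoded subunit that binds regulatory nucleotides, was at 530, 523 and 475 CPM in controls and 429, 416 and 450 CPM in PCBP1-OE. Each PCBP1-OE library was below each control, with a fitted log2 change of -0.24 (standard error 0.051, edgeR FDR 0.0179). Cox6a1 (ENSRNOG00000001170, chromosome 12) was at 810, 811 and 739 CPM in controls and 651, 660 and 727 CPM in PCBP1-OE, again without overlap (log2 fold change -0.21, standard error 0.054, edgeR FDR 0.0327). Cox8a had -0.18 (standard error 0.045, edgeR FDR 0.0286). Cox6b1, which faces the intermembrane space, has rows on chromosomes 1 and 2, with -0.18 (standard error 0.051, edgeR FDR 0.0416) and -0.26 (standard error 0.053, edgeR FDR 0.0141). Reads may be shared between these copies, so the values of the single rows are uncertain. Cox5b varied most within groups among the genes of this complex with over 1000 counts. It was at 502, 403 and 340 CPM in controls and 390, 312 and 407 CPM in PCBP1-OE, an overlap, with a fitted log2 change of -0.17 (standard error 0.12, edgeR FDR 0.376).

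Several subunits of complex IV have isoforms that other tissues or conditions use, and these were scarcely counted here. Cox4i2, the isoform of lung and of low oxygen, had 2, 3 and 4 counts in the controls, and the PCBP1-OE libraries had 1, 4 and 5. Cox6b2 and Cox8c, known from testis, had at most 2 and 3 counts in a library, Cox7b2 had at most 4, and the copy Cox6c1 had at most 1. Cox6a2, the heart and muscle isoform, passed the count filter with 31 to 48 counts per library and had a fitted log2 change of -0.18 (standard error 0.23, edgeR FDR 0.644). Cox7a2, its relative Cox7a2l, which acts in supercomplexes, and Cox7b had -0.11, -0.13 and -0.14 (edgeR FDR 0.232, 0.0934 and 0.104), and Cox7a2 had the value of complex IV nearest to 0. Cox7a1 and Cox8b were not analysed here. Ndufa4, which carries a complex I symbol and is now counted as a subunit of complex IV, had -0.085 (edgeR FDR 0.360). Its relative Ndufa4l2, known to be induced by low oxygen, had too few counts for a test, with 8, 6 and 7 in the controls, and the PCBP1-OE libraries had 11, 10 and 8. The pseudogene-like row Ndufv3-ps1 had at most 6 counts and was not tested either.

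Complex V, the ATP synthase, had 5 genes called of 18 tested, with a median of -0.17. In its catalytic F1 part the main subunits differed little. Atp5b (ENSRNOG00000002840, chromosome 7), the catalytic beta subunit, was at 2116, 2159 and 2139 CPM in controls and 2005, 2009 and 2048 CPM in PCBP1-OE. The groups did not overlap, but the log2 fold change of -0.081 (standard error 0.040) did not pass (edgeR FDR 0.203). The alpha and gamma subunits Atp5a1 and Atp5c1 had -0.040 and -0.058 (edgeR FDR 0.566 and 0.393). Atp5d, the delta subunit of the rotating central stalk, was at 250.1, 253 and 221 CPM in controls and 200.5, 203 and 220.0 CPM in PCBP1-OE. The replicates numbered 3 were almost equal, and its log2 fold change was -0.21 (standard error 0.058, edgeR FDR 0.0390).

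The parts of complex V in and beside the membrane held the other called genes. Atp5j2 (ENSRNOG00000027049, chromosome 12), the f subunit, was at 276, 269 and 225 CPM in controls and 203, 206 and 221 CPM in PCBP1-OE, without overlap. It had the lowest fitted value of complex V, a log2 fold change of -0.29 (standard error 0.068, edgeR FDR 0.0242). The proton-carrying c ring is made from 3 genes that encode the same mature protein. Of these Atp5g2 was called, with -0.23 (standard error 0.055, edgeR FDR 0.0253), while Atp5g1 and Atp5g3 had -0.15 and -0.13 (edgeR FDR 0.106 and 0.107), and the difference between them was not tested. In the peripheral stalk Atp5h, the d subunit, and Atp5o, which joins the stalk to F1, had -0.20 and -0.19 (standard errors 0.058 and 0.053, edgeR FDR 0.0455 and 0.0457). Atp5h overlapped between groups, at 524 CPM in control replicate 3 and 527 CPM in PCBP1-OE replicate 3. Atp5s and Atp5sl, which share the symbol but are not core subunits of the enzyme, had 0.036 and -0.21 (edgeR FDR 0.872 and 0.106).

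Atp5f1, the b subunit of the peripheral stalk, did not behave like the other genes. Its main row (ENSRNOG00000016000, chromosome 2) had 804, 642 and 41 counts in the controls, and the PCBP1-OE libraries had 1228, 1107 and 29 counts, so that both replicates numbered 3 were far below the other 4 libraries. Among 9592 genes with a mean of at least 100 counts it was the 1 gene in which both replicates numbered 3 stood at under 1 count for every 5 in the lowest other library. The reverse, both over 5 times the highest other, held for 1 gene, AABR07063425.1 on chromosome 6, annotated as a miRNA. It had 1, 19 and 810 counts in the controls, and the PCBP1-OE libraries had 39, 5 and 1247. The fitted log2 fold change of Atp5f1 was 0.63 with a standard error of 0.79 (edgeR FDR 0.639), which is the highest fitted value of complex V and did not pass, although it passed in 1 of 14 other settings, the fit without a count filter. A second row of the symbol (ENSRNOG00000046299, also on chromosome 2) had 26, 14 and 3 counts in the controls, and the PCBP1-OE libraries had 20, 22 and 5, low in the same libraries. Reads may be shared between these rows or with other copies, and the cause of the low counts was not tested.

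Genes around the respiratory chain were described from lists that were chosen with earlier results of these data known. The 13 mitochondrially encoded subunits, transcribed from mitochondrial DNA, had a median log2 fold change of -0.14, with 11 values below 0 and 2 above. By edgeR's quasi-likelihood test 0 were called and 8 were lower at an unadjusted p of 0.05 or less, while DESeq2 called 4 lower, limma-voom 1 and edgeR's exact test 0. Mt-co1, the catalytic subunit of complex IV, was at 16287, 16391 and 16068 CPM in controls and 14437, 15085 and 15286 CPM in PCBP1-OE. The groups did not overlap, with -0.12 (edgeR FDR 0.0720).

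Of 36 assembly factors and maturation proteins with other names, 1 was lower, Uqcc2, a factor for complex III assembly, with -0.18 (standard error 0.051, edgeR FDR 0.0422), and the median was -0.034. Of 16 tested enzymes of the tricarboxylic acid cycle 1 was lower, the mitochondrial isocitrate dehydrogenase Idh2. It was at 182, 177 and 171 CPM in controls and 151, 148 and 157 CPM in PCBP1-OE. The groups did not overlap, with a fitted log2 change of -0.22 (standard error 0.045, edgeR FDR 0.0166). Of 16 tested rows for electron carriers and dehydrogenases that feed the chain, such as cytochrome c, 0 were called by edgeR's quasi-likelihood test, DESeq2, limma-voom or edgeR's exact test, 5 were lower at an unadjusted p of 0.05 or less, and the median was -0.076.

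The regulators of respiratory gene transcription had mostly positive fitted values. Of 17 tested, 16 had fitted values above 0, with a median of 0.073, while 6370 of all 12624 tested genes had fitted values above 0. By edgeR's quasi-likelihood test 0 were called and 4 were higher at an unadjusted p of 0.05 or less, as were 13.6% of all tested genes. DESeq2 and limma-voom called 0, and edgeR's exact test called 1. Gabpa, the ETS factor named above, was at 53.4, 63.7 and 60.7 CPM in controls and 71.4, 65.1 and 67.8 CPM in PCBP1-OE, without overlap (log2 fold change 0.20, standard error 0.065, edgeR FDR 0.0678). Tfam, which packs mitochondrial DNA and acts in its transcription, had 0.099 (edgeR FDR 0.193). Nrf1 was the 1 regulator below 0, at -0.076 (edgeR FDR 0.446). Ppargc1a, the coactivator of mitochondrial biogenesis, had 1 to 8 counts per library and was not tested.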

How the data were processed

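Poly-A RNA of PC12 cells was measured in 3 control and 3 PCBP1-OE libraries, grouped by their labels. The deposited values are raw read counts per gene. Per the methods, reads were trimmed (FASTX-Toolkit), aligned with TopHat2 to the rat genome Rnor_6.0, and counted by gene if uniquely mapped, while the submitters' processing notes name GRCh38, a human build. How the reads were counted, and whether by strand, is not stated, so that genes which overlap or have near-identical copies carry uncertain counts.

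Counts were tested across all genes with edgeR 4.0.16 (R 4.3.3, quasi-likelihood test, TMM scaling, filterByExpr with a minimum count of 10 and total of 15, Benjamini-Hochberg adjustment, group as the only term). Genes left out numbered 7985. Levels are TMM-scaled CPM, which are not divided by gene length. The pipeline was tested on simulated data in which 200 of 12624 genes changed by a log2 size of 1. Of the changed genes 82% were recovered, and 8.38% of the calls were false, above the FDR threshold used here. The called decreases had log2 fold changes of -0.32 to -0.16, and recovery of changes that small was not tested. The members, lists, roles and tests were chosen with earlier results of these data known.

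Named are all members with an FDR of 0.05 or less, the extremes of each complex, isoform pairs and called genes of the lists. Other values, such as Ndufs1, Sdhb, Cox5b, Atp5f1, Mt-co1, Gabpa and the promoters shown, were chosen after their values were seen. The other settings tried were upper-quartile or RLE scaling, omission of the filter, a filter of 1 CPM in at least 3 libraries, DESeq2 1.42.0, limma-voom (limma 3.58.1), edgeR's exact test, a block for the replicate number, and omission of single libraries. Promoters came from RefSeq GRCr8. Splicing was not analysed here, and 1 member is counted but not reported by name here.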

Additional observations from a re-analysis of the deposited data

How the results depend on the processing

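The count of oxidative phosphorylation genes called lower was 22 with RLE scaling, 22 with at least 1 CPM in at least 3 libraries, 24 with DESeq2, which gave 3 members no adjusted p, 22 with limma-voom, 28 with edgeR's exact test, 34 without a filter and 13 with upper-quartile scaling. The count called higher was 2 without a filter and 0 with limma-voom, where 1 had an unadjusted p of 0.05 or less. Over all genes, 562 were called higher and 631 lower, 655 and 427 with upper-quartile scaling, and 1079 and 1011 without a filter. Upper-quartile scaling moved the median of all genes to 0.023. With 1 library left out, 0 to 50 members were called lower and 0 to 1 higher, and over all genes 36 to 1395 were higher and 12 to 1465 lower. The cause was not tested.

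The median of each complex stayed below 0 in every setting, and the change of each summed level stayed below 0 in the settings computed for it, RLE and upper-quartile scaling and the omission of single libraries. With 1 library left out the median was -0.18 to -0.11 in complex I, -0.064 to -0.022 in complex II, -0.21 to -0.10 in complex III, -0.23 to -0.14 in complex IV and -0.25 to -0.12 in complex V. Sdha ranged from -0.0086 to 0.038 and turned to -0.0012, -0.0063 and -0.0086 without control replicate 1, control replicate 2 and PCBP1-OE replicate 2. The second row of Atp5f1 ranged from -0.39 to 0.94 and turned to -0.39, -0.034 and -0.22 without control replicate 3, PCBP1-OE replicate 1 and PCBP1-OE replicate 2, and Uqcrc2, from -0.059 to 0.012, turned to 0.012 without PCBP1-OE replicate 2. Called genes passed in 2 (Ndufa7) to 9 of the 14 alternatives.

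The deviations of same-numbered libraries from their group means had r = -0.078, -0.051 and -0.043 over genes. No control library was most like the PCBP1-OE library of its own number. These values cannot show whether same-numbered libraries were handled together. Atp5f1 and AABR07063425.1 stood apart in both replicates numbered 3, and whether a batch was shared was not tested. In edgeR's quasi-likelihood test with a replicate block, 0 members were called lower and 0 higher (33 and 2 at an unadjusted p of 0.05 or less), and over all genes 14 were higher and 2 lower. The share of all genes at the unadjusted threshold was not computed for this fit. Genes with few counts, such as the scarce isoforms, are not resolved at this depth.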
